A study of Danio rerio with 12 samples.

Results

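The genes described here are the splicing factor and hnRNP genes of the zebrafish array, 76 of the 8793 genes that the platform annotation names with a single symbol. They were chosen by symbol alone: every gene whose name begins with srsf, sf3a, sf3b, snrp, hnrnp, u2af or prpf, or with lsm and a digit, was taken. Of their 100 probe sets the brightest on average over the 12 arrays stands for each gene. By symbol they fall into 7 families: 11 Sm and snRNP proteins, 2 U2AF subunits, 9 SF3a and SF3b subunits, 11 Prpf proteins, 11 Lsm proteins, 13 SR proteins and 19 hnRNPs. The symbol rule also takes in a few genes that do not act in splicing, such as lsm1 and the lsm14 genes, whose products work on mRNA in the cytoplasm, and it passes over core genes named otherwise, which are counted separately further on.

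Whole zebrafish embryos were compared on Affymetrix arrays in 4 groups of 3 arrays: embryos injected at the 1 to 2 cell stage with morpholinos against pbx2 and pbx4 (morphants) and embryos injected with control morpholinos, at 10 somites and at 18 somites. A morpholino is an antisense reagent that keeps a transcript from being translated or spliced. The labels call the control a pbx2 mutant morpholino, and name no strain and no number of embryos per sample. Pbx proteins belong to the TALE homeodomain class and act as DNA-binding partners of Hox proteins, among others. The labels do not say that replicates came from separate clutches, so the spread behind the p-values may be only technical.

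Splicing removes introns in steps that these families divide among themselves. The U1 snRNP marks the donor site, U2AF marks the acceptor site, and the U2 snRNP with its SF3a and SF3b subunits holds the branch point. The tri-snRNP, which carries many Prpf proteins, then builds the catalytic centre. A ring of Sm proteins sits on most spliceosomal RNAs and a ring of Lsm proteins on U6. SR proteins mostly promote the use of nearby exons and hnRNPs often repress it, and many of both families adjust their own transcripts by splicing in exons that lead to decay. An array probe set reports the amount of transcript it matches, so neither splice forms nor splicing itself was measured. In whole embryos, fewer cells of a type and less RNA per cell cannot be told apart.

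Values are deposited log2 signals, on which a difference of 1 is a doubling. The pbx2 and pbx4 probe sets were both higher in morphants than in controls, by 1.75 ± 0.11 and 0.45 ± 0.09 at 10 somites and by 1.63 ± 0.11 and 0.34 ± 0.09 at 18 somites (SE, n = 3 per group, adjusted p = 0.0192 or less). Morpholinos act on translation or splicing and can leave transcript levels untouched or raised, so the knockdown is not checked by these values. Of 23 markers of tissues of the embryo, 20 lay above the tag range (the range of control probe sets for sequences that embryos do not carry) in morphants and controls alike at 10 somites, and 21 in morphants and 22 in controls at 18 somites. The heart genes nkx2.5 and cmlc1 were not above it at 10 somites. At 18 somites nkx2.5 was above it in neither group, and cmlc1 in controls alone. Of the 76 members, 74 had group means above the tag range in all 4 groups. The exceptions were snrpd2, at 4.45 in morphants and 4.61 in controls at 10 somites, and lsm14b, at 6.08 and 6.13, so these probe sets say little about their genes.

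The Pbx knockdown moved a few splicing genes, most by less than 1.5-fold, and the set as a whole was called about as often as all genes. All genes are a dimmer set for comparison. In controls at 10 somites 2163 of the 8793 had means no higher than the tag range, against 2 of the 76 members. At 10 somites 3 of the 76 rose and 4 fell in morphants, 9.21% of the members against 9.51% of all genes called in either direction by limma at an adjusted p under 0.05 (4.98% higher and 4.53% lower). Morphant and control arrays did not overlap for 29 members, 16 higher (21.1% against 17.2% of all genes) and 13 lower (17.1% against 14.4%). At 18 somites 4 rose and 9 fell, 17.1% against 14.8% of all genes. Lower calls made up 11.8% of the members against 6.48% of all genes and higher calls 5.26% against 8.28%. The groups did not overlap for 12 members higher in morphants (15.8% against 17.4%) and 18 lower (23.7% against 14.4%). The median effect of the members was -0.0065 at 10 somites and -0.036 at 18 somites, against -0.0023 and 0.0027 over all genes. In all, 15 members were called at 1 stage or the other and 5 at both: snrpd1 and hnrnpc rose at both stages, and srsf3b, hnrnpa0a and hnrnpr fell at both. The matching shares of all genes are not given here, so these counts do not set the members apart. Over the 76 members the effects at the stages, which share no arrays, had a Pearson correlation of 0.756 and a Spearman correlation of 0.728, against 0.685 and 0.617 over all genes. Genes are not independent replicates, so this is a description.

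**Figure D1:**
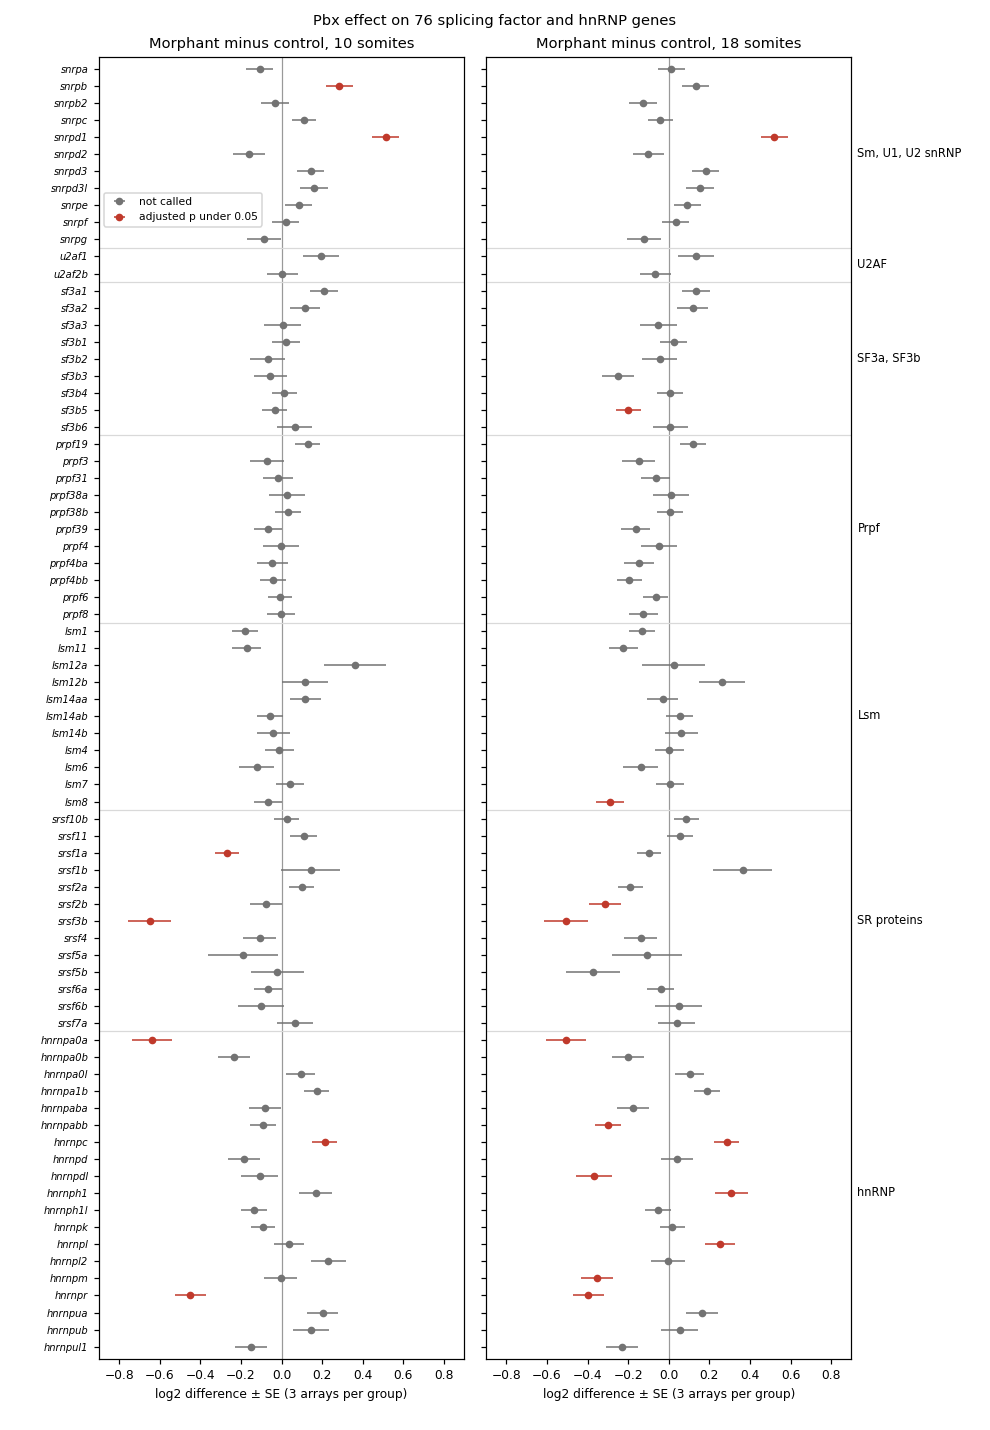
Morphant minus control difference in log2 signal (x axis, ± SE, 3 arrays per group) for each of the 76 members, by family, at 10 somites (left) and 18 somites (right), with members at an adjusted p under 0.05 in red. Most points lie within 0.2 of 0, snrpd1 stands out to the right at both stages, and srsf3b, hnrnpa0a and hnrnpr to the left at both.

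Among the snRNP proteins the Sm ring gene snrpd1 changed most. SmD1, its product, is a subunit of the ring that binds U1, U2, U4 and U5 RNAs. Its signal was 12.91, 12.87 and 12.84 on the morphant arrays at 10 somites, against 12.41, 12.34 and 12.34 on the control arrays, a difference of 0.51 ± 0.07 (1.43-fold, adjusted p = 0.000354). At 18 somites it was 11.87, 11.79 and 11.65 in morphants, against 11.23, 11.26 and 11.25 in controls, a rise of 0.52 ± 0.07 (adjusted p = 0.000238). Every morphant array stood above every control array of its stage, and the call held under all 14 alternatives at each stage. The gene for the SmB subunit, snrpb, read 13.08, 12.97 and 13.12 in morphants and 12.85, 12.77 and 12.70 in controls at 10 somites, and rose by 0.28 ± 0.07 (adjusted p = 0.0167). Its values at 18 somites were 11.95, 11.94 and 11.86 in morphants and 11.80, 11.79 and 11.76 in controls, without overlap, but the effect of 0.13 ± 0.07 was not called (adjusted p = 0.223). The snrpb call at 10 somites was lost without the morphant array numbered 1 (adjusted p = 0.0566) or 3 (0.0808) or the control array numbered 2 (0.0581) or 3 (0.0531).

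The rest of the ring did not pass the test. The SmD3 genes snrpd3 and snrpd3l were at 0.14 ± 0.07 and 0.16 ± 0.07 at 10 somites and at 0.18 ± 0.07 and 0.16 ± 0.07 at 18 somites, with all morphant arrays above all control arrays in each case (adjusted p = 0.0968 or more). The ring genes snrpe, snrpf and snrpg lay between -0.085 and 0.084 at 10 somites and between -0.12 and 0.091 at 18 somites. The U1 genes snrpa and snrpc were at -0.11 ± 0.07 and 0.11 ± 0.06 at 10 somites and at 0.011 ± 0.07 and -0.042 ± 0.06 at 18 somites, and the U2 gene snrpb2 was at -0.032 and -0.13. Of the 11 genes of this family 7 had a positive effect at each stage.

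Branch point and acceptor site genes moved little. For u2af1, the subunit that reads the acceptor dinucleotide, the effect was 0.20 ± 0.09 at 10 somites (adjusted p = 0.207) and 0.14 ± 0.09 at 18 somites (adjusted p = 0.371). Its partner u2af2b, which binds the pyrimidine tract, was at 0.004 (95% interval -0.16 to 0.17) and -0.066 (-0.23 to 0.096). None of the 9 SF3 genes was called by limma at 10 somites, where they ran from -0.069 for sf3b2 to 0.21 ± 0.07 for sf3a1. Of the 9, 1 had an unadjusted p under 0.05 there, as had 2191 of all 8793 genes. The sf3b1 gene, whose product cradles the branch point helix, was at 0.021 (95% interval -0.13 to 0.17) at 10 somites and 0.024 (-0.12 to 0.17) at 18 somites. At 18 somites sf3b5, a small subunit of the same complex, fell by 0.20 ± 0.06 (adjusted p = 0.0479), with 10.22, 10.22 and 10.18 on morphant arrays and 10.43, 10.43 and 10.37 on control arrays. That call was lost with the replicate number as a block (adjusted p = 0.0531) and without any 1 of the 6 arrays of the stage (0.0682 to 0.134). With the block sf3b3 was called instead, at -0.25 ± 0.08 (adjusted p = 0.0541 without the block and 0.027 with it).

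No Prpf gene was called by limma at either stage. At 10 somites 0 of 11 and at 18 somites 2 of 11 had an unadjusted p under 0.05, against 2191 and 2592 of all 8793 genes. Their effects ran from -0.072 for prpf3 to 0.13 ± 0.06 for prpf19 at 10 somites and from -0.19 ± 0.06 for prpf4bb to 0.12 ± 0.06 for prpf19 at 18 somites. For prpf8, the large U5 protein at the core of the spliceosome, the 95% interval of the effect was -0.15 to 0.14 at 10 somites and -0.27 to 0.024 at 18 somites. Prp19, the product of prpf19, is a ubiquitin ligase of the complex that activates the spliceosome, and its morphant arrays lay above its control arrays at both stages (adjusted p = 0.251 at each).

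Of the 11 Lsm genes 1 was called, lsm8, whose product sets the nuclear U6 ring apart from the cytoplasmic one. At 18 somites it read 9.59, 9.50 and 9.35 in morphants, against 9.79, 9.80 and 9.72 in controls, a fall of 0.29 ± 0.07 (adjusted p = 0.0135). At 10 somites its values were 10.86, 10.87 and 10.79 against 10.93, 10.89 and 10.89 in controls, without overlap, at -0.065 ± 0.07 (adjusted p = 0.65). Leaving out the control array numbered 1 ended the call (adjusted p = 0.0505). The other ring genes lsm4, lsm6 and lsm7 were not called, at -0.011, -0.12 and 0.043 at 10 somites and at 0.0033, -0.14 and 0.0070 at 18 somites. The gene with the highest effect at 10 somites, lsm12a, was at 0.36 ± 0.15 (adjusted p = 0.175, and 0.0365 with the replicate block). Its other, dimmer probe sets were at 0.14 and 0.083 there and were not called. At 18 somites the brightest lsm12a probe set was at 0.023, while the copy lsm12b was at 0.26 ± 0.11 (adjusted p = 0.155, and 0.0413 with the block). For lsm11, whose human product is a ring subunit of the U7 snRNP that processes histone mRNA, the effect at 18 somites was -0.22 ± 0.07 (adjusted p = 0.0566, and 0.0447 with the block). Another lsm11 probe set, whose morphant signals lay within the tag range, was called there without the block (-0.29 ± 0.09, adjusted p = 0.0409). For lsm14aa, a dimmer probe set was called higher at 10 somites (0.36 ± 0.09, adjusted p = 0.0212). Its brightest probe set and another were at 0.12 and 0.18 there and were not called.

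Among the SR protein genes srsf3b had the lowest effect, which at 10 somites was the lowest of the whole set. SRSF3 is the smallest member of the family and also an adaptor for mRNA export. The srsf3b signal was 10.25, 10.30 and 10.25 on morphant arrays at 10 somites, against 11.01, 10.88 and 10.84 on control arrays, a fall of 0.65 ± 0.11 (1.57-fold, adjusted p = 0.0021). Its signal at 18 somites was 9.85, 9.53 and 9.30 in morphants, against 10.14, 10.05 and 10.01 in controls, a fall of 0.51 ± 0.11 (adjusted p = 0.00747). The groups did not overlap at either stage, and the morphant arrays at 18 somites were spread more widely than the others. The call held under all 14 alternatives at each stage.

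The srsf1a gene, for a founding member of the SR family, fell at 10 somites by 0.27 ± 0.06 (adjusted p = 0.0136), with 11.98, 11.95 and 11.90 in morphants and 12.20, 12.21 and 12.22 in controls. At 18 somites it read 11.22, 11.09 and 11.15 in morphants, against 11.23, 11.25 and 11.28 in controls, still without overlap, at -0.098 ± 0.06 (adjusted p = 0.332). Its call was lost without the morphant array numbered 3 (0.0648). The srsf2b gene, for a copy of SRSF2 (SC35), fell at 18 somites by 0.31 ± 0.08 (adjusted p = 0.0179), with 8.73, 8.67 and 8.51 in morphants and 9.06, 8.93 and 8.86 in controls. At 10 somites its groups overlapped (9.91, 9.83 and 10.02 in morphants, 10.03, 9.96 and 10.00 in controls). The srsf2b call was lost without the morphant array numbered 3 (0.0663) or the control array numbered 1 (0.0833). The replicate block added srsf1b, at 0.37 ± 0.15 (adjusted p = 0.125 without the block and 0.00235 with it), and srsf5b, at -0.37 ± 0.13 (0.0826 and 0.0114), to the calls at 18 somites. No SR gene rose without it.

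Of the 19 hnRNP genes, the largest family, 2 fell and 1 rose at 10 somites and 5 fell and 3 rose at 18 somites, 15.8% and 42.1% against 9.51% and 14.8% of all genes. The lowest was hnrnpa0a, for an A/B type hnRNP whose mammalian counterpart binds AU-rich elements. It read 11.62, 11.36 and 11.29 in morphants at 10 somites, against 12.06, 12.09 and 12.03 in controls, a fall of 0.64 ± 0.10 (1.56-fold, adjusted p = 0.00131). Its values at 18 somites were 10.85, 10.83 and 10.51 in morphants, against 11.28, 11.25 and 11.18 in controls, a fall of 0.51 ± 0.10 (adjusted p = 0.00448). All morphant arrays lay under all control arrays of their stage, and the call held under all 14 alternatives at each, although with its 3 probe sets averaged the fall was 0.42 and 0.33. Of its other 2 probe sets, 1 fell too, by 0.79 and 0.53 (adjusted p = 0.000555 and 0.0057), while the other, with the lowest signal of the 3, was at 0.16 and 0.058 and was not called.

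The hnrnpr gene, for a relative of syncrip that binds mRNA in the axons of mouse motor neurons, also fell at both stages. It read 9.12, 9.07 and 9.09 in morphants at 10 somites, against 9.58, 9.57 and 9.47 in controls (-0.45 ± 0.08, adjusted p = 0.00246). Its values at 18 somites were 8.19, 8.12 and 8.06 in morphants, against 8.52, 8.66 and 8.37 in controls (-0.40 ± 0.08, adjusted p = 0.00423). The groups did not overlap at either stage, and of the 14 alternatives 1, leaving out the 4 arrays numbered 1, ended the calls (adjusted p = 0.0649 at 10 somites and 0.0508 at 18 somites). The gene hnrnpc, whose human product binds U tracts and keeps U2AF off cryptic exons, went the other way. It read 10.83, 10.92 and 10.84 in morphants at 10 somites, against 10.71, 10.59 and 10.65 in controls (0.21 ± 0.06, adjusted p = 0.0496). For 18 somites the values were 9.71, 9.78 and 9.79 in morphants, against 9.48, 9.49 and 9.46 in controls (0.29 ± 0.06, adjusted p = 0.00831). The hnrnpc call at 10 somites was lost under 11 of the 14 alternatives. Among them were the replicate block (0.0588), quantile normalization, median centring and leaving out any 1 of the 6 arrays of the stage (0.0644 to 0.18). Its call at 18 somites held without each array in turn but was lost without the 4 arrays numbered 1 (0.0642).

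A further 5 hnRNP genes were called at 18 somites and not at 10 somites. For hnrnpm, which binds GU-rich sequence in human cells, the signals were 11.34, 11.24 and 11.04 in morphants and 11.63, 11.49 and 11.56 in controls, a fall of 0.35 ± 0.08 (adjusted p = 0.0111). At 10 somites the groups overlapped, with 12.52, 12.55 and 12.68 in morphants and 12.54, 12.58 and 12.65 in controls. For hnrnpdl, a relative of the AU-rich element binder hnRNP D, they were 10.06, 10.00 and 9.68 in morphants and 10.26, 10.22 and 10.37 in controls, a fall of 0.37 ± 0.09 (adjusted p = 0.0156). At 10 somites hnrnpdl read 11.38, 11.40 and 11.43 in morphants and 11.45, 11.58 and 11.50 in controls, without overlap, at -0.11 ± 0.09. For hnrnpabb they were 11.76, 11.67 and 11.60 in morphants and 11.95, 11.96 and 12.03 in controls, a fall of 0.30 ± 0.06 (adjusted p = 0.00807) that held under all 14 alternatives. At 10 somites hnrnpabb read 13.38, 13.34 and 13.34 in morphants and 13.50, 13.45 and 13.39 in controls, at -0.092 ± 0.06. Without the control array numbered 1 the adjusted p of hnrnpm was 0.0508, and without the control array numbered 3 that of hnrnpdl was 0.0611.

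Both other calls at 18 somites were rises. For hnrnph1, whose human product binds runs of G, the signals were 7.14, 7.22 and 7.51 in morphants, the last well above the others, and 6.97, 6.98 and 6.99 in controls, a rise of 0.31 ± 0.08 (adjusted p = 0.0243). At 10 somites hnrnph1 read 8.07, 8.10 and 8.09 in morphants and 7.88, 7.91 and 7.96 in controls, without overlap, at 0.17 ± 0.08 (adjusted p = 0.244). Without the morphant array numbered 3 the effect of hnrnph1 at 18 somites was 0.20 (adjusted p = 0.0657), and its call was also lost without the control array numbered 1, 2 or 3 (0.0702, 0.062 and 0.0578). For hnrnpl, whose human product binds CA repeats, the signals were 10.20, 10.40 and 10.41 in morphants and 10.05, 10.14 and 10.06 in controls, a rise of 0.25 ± 0.07 (adjusted p = 0.0374). At 10 somites hnrnpl overlapped, with 11.56, 11.55 and 11.64 in morphants and 11.54, 11.63 and 11.47 in controls. Its call was lost without the morphant array numbered 2 (0.118) or 3 (0.112) and without the control array numbered 1, 2 or 3 (0.118, 0.0555 and 0.0952), and after median centring of the arrays. With the replicate block hnrnpa0b was called at 10 somites (-0.24 ± 0.08, adjusted p = 0.0852 without the block and 0.0327 with it) and hnrnpul1 at 18 somites (-0.23 ± 0.08, 0.0775 and 0.0322). Another hnrnpa0b probe set fell at both stages without the block, by 0.35 ± 0.09 and 0.34 ± 0.09 (adjusted p = 0.0319 and 0.0269). Its remaining probe sets were not called, at -0.15 and 0.0033 at 10 somites and at 0.050 and -0.27 at 18 somites. The block raised the shares called of all genes as well, to 14.8% at 10 somites and 20.8% at 18 somites, beside 8 and 18 members.

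**Figure D2:**
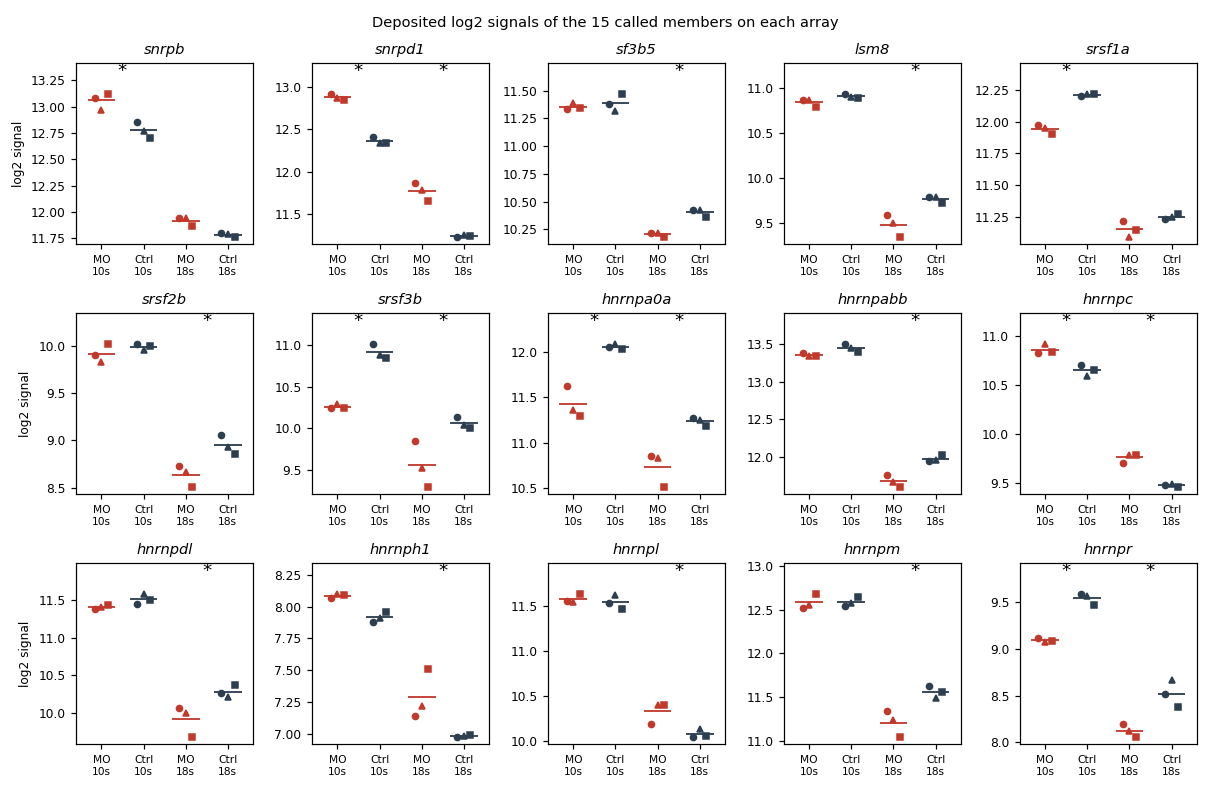
Deposited log2 signals (y axis) of the 15 members called at 10 or 18 somites, on each array of morphants (MO, red) and controls (Ctrl, dark blue), with circles, triangles and squares for arrays numbered 1, 2 and 3, lines for group means and a star over each stage with an adjusted p under 0.05. The stages are on different array scales, so only groups of the same stage can be compared here. On the morphant arrays at 18 somites the square is the lowest point for srsf3b (9.30), hnrnpa0a (10.51), hnrnpm (11.04) and hnrnpdl (9.68), and the highest for hnrnph1 (7.51).

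For these genes the morphant arrays numbered 3 and 1 at 18 somites lay furthest from their group mean, on opposite sides. The median deviation of the members was -0.066 on the array numbered 3 and 0.057 on that numbered 1, against 0.017 on that numbered 2. Over all genes the medians on these arrays lay between -0.019 and 0.012. The morphant array numbered 3 had the lowest array weight of the 12 (0.497). On this array the difference between the GAPDH control probe sets at the end and the start of the transcript, a sign of RNA quality, was the highest, at 0.30, against 0.13 or less on the other 11 arrays. The same difference for the muscle actin control was 3.06 to 3.15 in morphants and 2.53 to 2.67 in controls at 10 somites, and 2.97 to 3.25 in morphants and 2.40 to 2.54 in controls at 18 somites. Their part in the results was not tested. Without the morphant array numbered 3, 10 members were called at 18 somites, 2 higher and 8 lower. The share of all genes called in that fit is not given here, so this count does not single out the members. The median effect of the members was then -0.0073, against 0.00017 over all genes.

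Of 28 measured genes of a cell cycle list 12 fell and none rose at each stage, 42.9% against 4.53% of all genes lower at 10 somites and 6.48% at 18 somites. Their medians were -0.27 and -0.21. The log2 of their summed signal was 15.35 to 15.38 in morphants and 15.64 to 15.67 in controls at 10 somites, and 14.43 to 14.55 in morphants and 14.70 to 14.77 in controls at 18 somites. Of 5 neural progenitor markers 2 fell at each stage, and of 5 muscle markers 1 fell at 10 somites, while 2 fell and 1 rose at 18 somites. Of 3 neuron markers neurog1 fell at both stages (-0.73 ± 0.08 and -0.41 ± 0.08), while elavl3 and isl1a were not called. Of 3 blood markers gata1a fell at 10 somites (-0.52 ± 0.15, adjusted p = 0.0492), and none was called at 18 somites. Of 2 heart markers cmlc1 fell at 18 somites (-1.85 ± 0.12), where its morphant signal was not above the tag range. At that stage isl1a, tal1 of blood and nkx2.5 of the heart were at 0.10, 0.086 and 0.098, not called. The nkx2.5 value says little, since its signal was not above the tag range in either group. None of 3 notochord and 2 epidermis markers was called by limma at either stage, and 0 had an unadjusted p under 0.05. Their part in the splicing genes' results was not tested.

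The difference between the effects at 18 and at 10 somites was called for none of the 76 members by limma, against 0.0455% of all genes. An unadjusted p under 0.05 was found for 5 of the 76 members, against 819 of all 8793 genes. Among the members called at 1 stage only, the difference was -0.35 ± 0.11 for hnrnpm (95% interval -0.59 to -0.10, adjusted p = 0.406), -0.24 ± 0.11 for srsf2b (adjusted p = 0.61), -0.23 ± 0.10 for lsm8 (0.596) and -0.21 ± 0.09 for hnrnpabb (0.603). The fifth gene of this kind was srsf2a, which was called at neither stage, at -0.19 ± 0.06 at 18 somites and 0.099 ± 0.06 at 10 somites. The calls made at 18 somites and not at 10 somites are therefore not shown to be particular to that stage. For snrpd1, called at both, the difference was 0.0083 (95% interval -0.19 to 0.21).

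Many of these genes exist in zebrafish as copies, and the copies did not all have the same values. While srsf1a was at -0.27 and -0.098, srsf1b was at 0.14 and 0.37 at 10 and 18 somites. While hnrnpa0a was at -0.64 and -0.51, hnrnpa0b was at -0.24 and -0.20 and hnrnpa0l at 0.094 and 0.10. The gene models of hnrnpa0b and hnrnpa0l overlap in the RefSeq table, so their signals may not be separate. The hnrnpab copies hnrnpaba and hnrnpabb were at -0.083 and -0.092 at 10 somites and at -0.18 and -0.30 at 18 somites. The pair hnrnph1 and hnrnph1l was at 0.17 and -0.14 at 10 somites and at 0.31 and -0.052 at 18 somites, and snrpd3 and snrpd3l had nearly equal values at both. Each copy is given by its brightest probe set, and other probe sets of hnrnpa0a and hnrnpa0b gave other values. Differences between copies were not tested, and probes may read more than 1 copy.

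**Figure D3:**
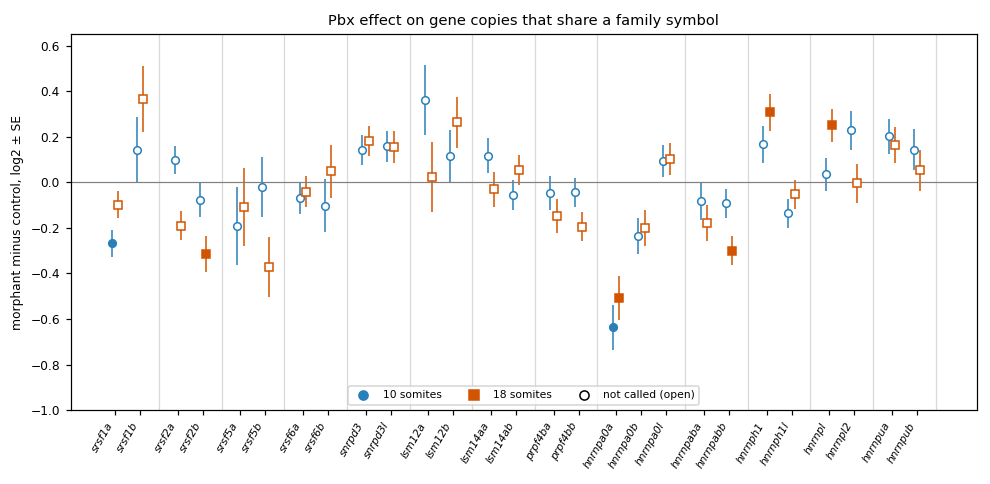
Morphant minus control difference in log2 signal (y axis, ± SE, 3 arrays per group) for members with copies that share a family symbol, at 10 somites (blue circles) and 18 somites (orange squares), filled where the adjusted p was under 0.05. The srsf1 and hnrnpa0 copies lie on both sides of 0 at 10 and 18 somites, and the snrpd3 copies lie together between 0.14 and 0.18.

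Of 57 measured spliceosome genes outside the symbol rule none was called by limma at 10 somites. There 9 had an unadjusted p under 0.05, as had 2191 of all 8793 genes. At 18 somites 1 rose (u2surp, at 0.24 ± 0.06) and 3 fell, 7.02% against 14.8% of all genes. The fallen were snu13b, for a protein of the U4 and box C/D RNPs, at -0.32 ± 0.07, txnl4b at -0.29 ± 0.09 and the chaperone gene hspa8 at -0.25 ± 0.06. Of 74 other splicing regulators and mRNP genes 4 rose and 3 fell at 10 somites, and 7 rose and 3 fell at 18 somites, 9.46% and 13.5% against 9.51% and 14.8% of all genes. The highest was upf3b, which links exon junctions to mRNA decay, at 0.85 ± 0.09 and 0.86 ± 0.09 (adjusted p = 4.06e-05 and 3.86e-05). The zinc finger splicing gene zranb2 rose by 0.48 ± 0.08 and 0.38 ± 0.08. The lowest were khdrbs1b, a copy of the Sam68 gene, at -0.94 ± 0.07 and -0.57 ± 0.07 (adjusted p = 1.79e-06 and 0.000128), and sfpq, a paraspeckle and splicing gene, at -0.55 ± 0.08 and -0.38 ± 0.08. The third of the fallen was celf2 at 10 somites (-0.52 ± 0.09) and tra2a at 18 somites (-0.36 ± 0.08), and the third highest of the risen was rbm25a at 10 somites (0.36 ± 0.10), which lay within the tag range in all groups, and, at 18 somites, clk2a (0.55 ± 0.13), after upf3b and rbfox1l (0.63 ± 0.11).

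Genes that load the Sm ring onto its RNA changed in both directions. Of 15 measured genes for snRNP assembly 2 rose and 1 fell at 10 somites, and 1 rose and 5 fell at 18 somites, 20% and 40% against 9.51% and 14.8% of all genes. The SMN complex gene gemin7 rose by 0.48 ± 0.09 and 0.53 ± 0.09 (adjusted p = 0.00321 and 0.00127), and strap, of the same complex, rose by 0.31 ± 0.09 at 10 somites (adjusted p = 0.0395). The Sm chaperone gene clns1a fell by 0.37 ± 0.08 and 0.60 ± 0.08 (adjusted p = 0.0099 and 0.000265). At 18 somites gemin5, whose human product recognises the snRNA, fell by 0.67 ± 0.12 (adjusted p = 0.00239), and gemin4 by 0.31 ± 0.06 (0.00525).

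Between the stages most splicing genes fell relative to the median probe set, and fewer did under another scaling. The arrays of the stages stood on different scales: as deposited, the median change of all genes from 10 to 18 somites was -0.81 in control embryos, so each array was centred on its median. After centring, 57 of 76 members were lower and 1, srsf6b, was higher at 18 than at 10 somites in morphants, and 54 were lower and none higher in controls. Lower calls covered 32% of all genes in morphants and 29.3% in controls, and higher calls 22.9% and 21.8%. The median change of the members was -0.38 in morphants and -0.32 in controls, against -0.054 and -0.042 over all genes. Of the members, 51 were called lower in both kinds of embryo. The scales of the stages did not differ by a constant alone: the 95th percentile of the centred arrays was 3.48 to 3.58 at 18 somites and 3.66 to 3.69 at 10 somites, and the member medians lay in that part of the range. With the 12 arrays quantile normalized together, 46 members were lower and 3 higher in morphants and 37 were lower and 3 higher in controls, against 25% and 23.2% of all genes lower and 22.8% and 20.5% higher. The medians were then -0.23 and -0.20. The 46 and 37 lower were all among those called lower after centring. Which arrays the authors normalized in 1 run is unknown here, so stage and processing cannot be told apart.

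All 9 SF3 genes were lower at 18 somites in both kinds of embryo after centring, with medians of -0.48 in morphants and -0.39 in controls, and 9 and 7 of them after quantile normalization. So were both U2AF genes under both scalings. The Sm and snRNP family had 9 of 11 lower in each kind of embryo, the Prpf family 10 of 11 in morphants and 8 of 11 in controls, and the hnRNPs 13 of 19 in each. The Lsm family (6 and 5 of 11) and the SR family (8 and 8 of 13) had smaller shares. After quantile normalization the counts lower in morphants and in controls were 7 and 6 for the Sm and snRNP family, 7 and 6 for the Prpf family and 11 and 9 for the hnRNPs. They were 5 and 3 of 11 for the Lsm family and 5 and 4 of 13 for the SR family, which in controls came to 27.3% and 30.8% against 23.2% of all genes. After centring the lowest change in control embryos was that of prpf3, a U4/U6 protein, whose centred signals were 1.47, 1.49 and 1.36 at 18 somites, against 2.25, 2.20 and 2.00 at 10 somites (-0.71 ± 0.08, adjusted p = 1.16e-05). The prpf3 change was -0.40 with its probe sets averaged and -0.60 after quantile normalization, where that of hnrnpabb was lower, at -0.62. For hnrnpabb they were 5.42, 5.44 and 5.50 at 18 somites, against 6.20, 6.15 and 6.10 at 10 somites (-0.70 ± 0.06, adjusted p = 1.77e-06). The hnrnpabb change was -0.93 ± 0.06 in morphants, the lowest of the set there. For hnrnpl they were 3.51, 3.62 and 3.54 at 18 somites, against 4.24, 4.33 and 4.18 at 10 somites (-0.70 ± 0.07). For hnrnph1l they were 4.12, 4.11 and 4.09 at 18 somites, against 4.65, 4.76 and 4.72 at 10 somites, at -0.60 ± 0.06, the same change as that of prpf4. In each of these the stages did not overlap, and all 5 were lower after quantile normalization as well.

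Of the 76 members 15 were called between stages in neither kind of embryo, and 8 in morphants and 5 in controls had a positive change after centring. The SR gene srsf6b was at 0.34 ± 0.11 in morphants (adjusted p = 0.0236) and 0.20 ± 0.11 in controls (adjusted p = 0.153), with centred signals in morphants of 3.39, 3.54 and 3.80 at 18 somites, against 3.07, 3.16 and 3.50 at 10 somites, which overlapped. The srsf6b call in morphants was lost under 5 of 12 alternatives, among them array weights and leaving out the morphant array numbered 3 at 18 somites. It was reversed under 1. After quantile normalization srsf6b was called higher in both kinds of embryo, and so was lsm4, while hnrnpa0a was called higher in morphants and lsm14aa in controls. As deposited, all 76 members read lower at 18 than at 10 somites. Of the genes with the largest pbx effects, snrpd1 was called lower between stages in both kinds of embryo under both scalings. After quantile normalization it was at -0.22 in morphants and -0.20 in controls. In contrast, srsf3b and hnrnpa0a were not called between stages after centring, at 0.044 and 0.051 in morphants and -0.081 and -0.059 in controls. The other hnrnpa0a probe sets differed from this. The dimmest was lower, at -0.70 in morphants and -0.58 in controls (adjusted p = 2.75e-05 and 0.000148). The remaining probe set was at 0.41 in morphants and 0.18 in controls (adjusted p = 0.00663 and 0.199). The brightest srsf6a probe set was called lower in both kinds of embryo. Its dimmest was higher, at 0.30 in morphants and 0.24 in controls (adjusted p = 0.00548 and 0.0207), and another was lower, at -0.35 and -0.36. For prpf8, also called lower in both, the change with its probe sets averaged was -0.041 in morphants and -0.020 in controls, not called. Of 57 other spliceosome genes 49 were lower in morphants and 46 in controls, with none higher. The lower were 86% and 80.7%, against 32% and 29.3% of all genes. Cell cycle genes were lower in 12 and 14 of 28 (42.9% and 50%) and higher in 1 and 0, with medians of -0.15 and -0.18. Their part in the fall of the splicing genes was not tested.

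**Figure D4:**
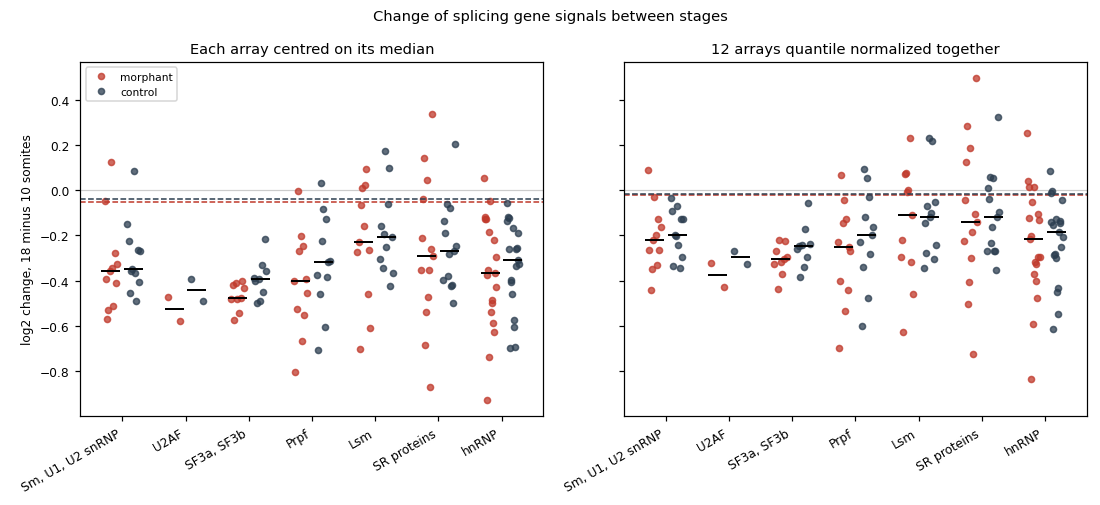
Change in log2 signal from 10 to 18 somites (y axis) for each member, by family, in morphants (red) and controls (dark blue), after centring each array on its median (left) and after quantile normalization of the 12 arrays (right), with black lines for family medians and dashed lines for the median of all genes. Family medians lie below the dashed lines in both panels, closer to them on the right, where the median over all members was -0.23 in morphants and -0.20 in controls.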

How the data were processed

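The authors deposited RMA signals on the log2 scale, 1 value for each probe set; RMA and the affy package are named by the submitters' processing notes, without a version. Nothing in the labels tells which arrays RMA took together. The arrays give no detection value, and their number limits the precision. The fit covered 15502 probe sets, without 115 AFFX controls. The platform annotation gave 10795 of these 1 symbol, 135 several and 4572 none. All 76 members matched genes in the RefSeq table for GRCz12tu, which served for names and gene neighbours alone. A model with 1 mean per group was fitted over all 12 arrays with limma 3.58.1 (lmFit, eBayes) under R 4.3.3, with two-sided p-values adjusted by the Benjamini-Hochberg method over all probe sets and called under 0.05. Stage changes used values centred on each array's median. Errors after ± are the model's standard errors, with 3 arrays per group. The code was tested on simulated data. The tag range is that of 8 tag control probe sets.

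Same-numbered arrays of a stage had correlated deviations (0.548, 0.214 and 0.246 over probe sets at 10 somites and 0.408, 0.301 and 0.325 at 18 somites). Morphant and control arrays of unlike number ran from -0.427 to 0.231 at 10 somites and from -0.289 to -0.0869 at 18 somites. At 10 somites the pair numbered 2 therefore lies within the range of unlike pairs, and the pair numbered 3 only just above it. The fit with the replicate number as a block is given where it changes a call. The members, lists and tests were chosen with earlier results of these data known. Every member may be named within its family; values of each array are given for the 14 called members with the largest pbx effect, for the 4 lowest stage changes in controls and for sf3b5 and srsf6b, added after their values were seen. For the spliceosome, splicing regulator and snRNP assembly lists the genes with the 3 largest called pbx effects in each direction are named. Cell cycle genes are given as counts, and of the tissue markers only some are named. The alternatives were the block, quantile normalization, centring, array weights, averaging each gene's probe sets, a filter keeping the brightest 60% of probe sets, the arrays of 1 stage alone, leaving out each array, and leaving out the 4 arrays numbered 1.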

Additional observations from a re-analysis of the deposited data

How the results depend on the processing

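At 10 somites 7 members were called (9.21% against 9.51% of all genes). There were 12 with array weights and 3 without the 4 arrays numbered 1. Leaving out 1 array gave between 4 (without the morphant array numbered 3) and 6. At 18 somites 13 were called (17.1% against 14.8% of all genes). There were 7 with only the arrays of that stage in the fit and 4 without the 4 arrays numbered 1. Leaving out 1 array there gave between 7 (without the control array numbered 1) and 14. Under the replicate block the counts were 8 and 18, beside 14.8% and 20.8% of all genes. They shared 6 and 12 members with the fit without it, and the block changed no calls other than those named. For the other fits, apart from quantile normalization of the stage changes, the share of all genes is not given here. These member counts therefore do not tell whether the members alone or all genes gained or lost calls. The difference between the stages' effects was called for 0 members under every alternative run, the block included. The stage change was called for 53 to 57 members in morphants and 48 to 54 in controls when 1 array was left out, and for 49 and 40 after quantile normalization. As deposited it covered 76 in each, and srsf6b, higher in morphants after centring, was at -0.41. Of the calls at 10 and 18 somites, 3 of 7 and 4 of 13 held under all alternatives. The other calls at 18 somites were each lost without the 4 arrays numbered 1. Those of lsm8, srsf2b, hnrnpdl, hnrnph1, hnrnpl and sf3b5 were also lost with only the arrays of that stage in the fit. Of the stage calls, 44 of 58 in morphants and 36 of 54 in controls held under all alternatives. Fits without arrays have fewer residual degrees of freedom. The part of this and of other causes in the lost calls was not tested.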

Other observations

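Some splicing regulators outside the symbol rule ran against the fall between stages. The muscle gene rbfox1l rose by 1.93 in morphants and by 1.51 ± 0.11 in controls between 10 and 18 somites after median centring, the neural and muscle regulator celf2 by 1.495 and 1.15 ± 0.09, celf3a by 0.62 and 0.76 ± 0.08 and pcbp4 by 0.74 and 0.74 ± 0.10. Of 74 genes of that list 7 rose and 46 fell in morphants, and 6 rose and 38 fell in controls. The risen were 9.46% in morphants and 8.11% in controls, fewer than the 22.9% and 21.8% of all genes. The fallen were 62.2% and 51.4%, against 32% and 29.3% of all genes.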
